A study of Mus musculus with 12 samples.

Results

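The *Dppa* genes (developmental pluripotency associated) form a group named for where they are expressed, and their products belong to several unrelated protein families. They were taken here as every probe of the deposited table whose annotated gene symbol starts with *Dppa*. The rule found 4 of 20794 probes, or 4 of 9030 genes with a symbol, 1 probe each for *Dppa1*, *Dppa3*, *Dppa4* and *Dppa5a*. The arrays compared RNA from E10.5 yolk sacs of 6 homozygous *Prdm6*-deficient embryos, named *Prdm6* -/- in the labels and *Prdm6* del/del in the paper, with 1 pool of RNA from 6 *Prdm6* +/+ yolk sacs, on 12 cDNA microarrays with 2 channels. The del allele lacks an exon after germ line deletion by Cre, and a transcript spliced around that exon is still made from it. The line came from targeted embryonic stem cells through crosses with an flp deleter strain (B6;SJL) and a CMV-Cre deleter strain (B6.C), while the strain background of the embryos on the arrays is not given in the sources used here. *Prdm6* itself was not analysed here, and its deletion was therefore not checked on the arrays.

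*Dppa* genes are known as markers of cells that have kept or regained pluripotency: the preimplantation embryo, embryonic stem cells and primordial germ cells. Germ cell precursors of the mouse arise beside the extraembryonic tissues and then move through the gut endoderm to the gonads, whereas the yolk sac itself consists of visceral endoderm, mesoderm, vessels and blood. An array with 2 channels gives the ratio between genotypes and not the level of a gene, so whether a *Dppa* gene was expressed in these yolk sacs at all cannot be read from the values. Nor can fewer cells of a type be told apart from less RNA per cell in whole yolk sacs.

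Each value is a log2 ratio of *Prdm6* del/del over the wild type pool. The direction is likely rather than stated. The paper's legend gives *Sfrp1* and *Map1b* as higher and *Mmp2* as lower in the mutant. In the deposited values the mean log2 ratios of these genes were 1.003, 0.64 and -0.47, with the same sign in both dye orientations. The mutant channel was Cy5 on 5 arrays and Cy3 on 5 more, and on the remaining 2 (replicates 8 and 9) the labels name the same dye for both channels. Between 20011 and 20501 probes had a value on each array, and spot intensities were not analysed here, so precision is limited by how many arrays measured a probe. As the pool is 1 control sample, variation among wild type yolk sacs does not enter the tests. With 2 arrays per mutant yolk sac that the labels do not tie together, the 12 arrays were treated as independent samples, and p-values come out too small.

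None of the 4 *Dppa* probes passed the threshold for a difference between *Prdm6* del/del and wild type yolk sacs. In limma, 0 of 4 combined a change over 1.3-fold with a p under 0.05 after Benjamini-Hochberg adjustment over all probes, against 1.07% of the 20516 probes tested (220 probes, 34 higher and 186 lower). At an unadjusted p under 0.05, 1 of 4 was lower, *Dppa3*, against 6.41% of all probes tested, and 0 of 4 were higher, against 4.64%. Mean log2 ratios ran from -0.98 for *Dppa3* through -0.15 for *Dppa4* and 0.15 for *Dppa5a* to 0.42 for *Dppa1*. The 95% intervals of neighbours in this order overlapped in each case.

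*Dppa3*, also known as *Stella* or *PGC7*, is a maternal factor that protects DNA methylation in the zygote and an early marker of primordial germ cells. Its gene lies at chr6:122626424-122630271 (GRCm38.p6, as are all positions given here). Probe 9 had a value on 11 arrays. With the mutant in Cy5 the log2 ratios were -4.59, -0.82, -0.63 and -1.81 on replicates 1, 3, 7 and 11, and replicate 5 had no value. In the opposite orientation they were 0.02, -2.05, -0.70, 1.05 and -0.38 on replicates 2, 4, 6, 10 and 12. Replicates 8 and 9 had -0.98 and 0.86. The probe was thus below 0 on 8 of 11 arrays and above 0 on 3, and replicate 1 lay far under the others.

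The fitted mean of *Dppa3* was -0.98 (SE 0.39, SD 1.55 over 11 arrays), with a 95% interval from -1.85 to -0.11. As a ratio of mutant over wild type this is 0.507, with an interval from 0.278 to 0.924. The unadjusted p was 0.03 and the adjusted p 0.373 in limma, and with the signs of the 11 values flipped in every combination, an exact permutation test of the mean, p was 0.0645 (two-sided). The largest mean among the *Dppa* genes therefore did not pass once all probes were counted. Without replicate 1 the mean was -0.60 (adjusted p = 0.511 in limma), so that 1 array moved it by over 1.5 times. A pseudogene, *Dppa3-ps*, is annotated on the X chromosome, and whether the probe also bound its transcripts was not tested.

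*Dppa1* was the least completely measured member, and its sign was not settled. The gene lies at chr11:46607010-46629274, and probe 7 had a value on 8 arrays, the minimum set for the test. Its log2 ratios with the mutant in Cy5 were 0.45, 4.89, 0.26, -0.44 and 1.78 on replicates 1, 3, 5, 7 and 11. They were -0.69, 0.36 and -1.31 on the replicates 2, 4 and 10 with the mutant in Cy3. Replicates 6, 8, 9 and 12 had no value. Replicate 3 stood far above the other arrays, 5 of the 8 values were above 0 and 3 below, and the orientations overlapped.

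The fitted mean of *Dppa1* was 0.42 (SE 0.56, SD 1.94 over 8 arrays), with a 95% interval from -0.87 to 1.71 and an adjusted p of 0.826 in limma. The exact two-sided sign-flip permutation test over the 8 arrays gave p = 0.43. As a ratio the interval spans 0.546 to 3.28, so neither a lower nor a clearly higher level in the mutant could be distinguished from no difference. Without replicate 3, with the minimum lowered to 7 arrays for this purpose, the mean was -0.02 (adjusted p = 0.99 in limma). In the same way it was 0.19 without replicate 4 and 0.65 without replicate 7.

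*Dppa4* codes for a nuclear protein with a SAP domain that works with its neighbour *Dppa2* on chromatin in early embryos and embryonic stem cells. It lies at chr16:48283735-48294292. Probe 10 had a value on every array and the smallest spread of the 4. Log2 ratios with the mutant in Cy5 were -0.32, -0.28, -0.91, -0.15 and -0.03 on replicates 1, 3, 5, 7 and 11. With the dyes swapped they were -0.23, -0.25, 0.07, 0.16 and 0.49 on replicates 2, 4, 6, 10 and 12. Replicates 8 and 9 had -0.14 and -0.18. Values were below 0 on 9 of 12 arrays, replicate 5 was the lowest, and all 3 values above 0 came from arrays with the mutant in Cy3.

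The fitted mean of *Dppa4* was -0.15 (SE 0.09, SD 0.33 over 12 arrays), with a 95% interval from -0.33 to 0.04 (a ratio of 0.794 to 1.03). Its adjusted p was 0.571 in limma, and the exact two-sided sign-flip permutation test over 12 arrays gave p = 0.154. With arrays taken as independent, the interval lies inside a change of 1.3-fold in either direction. The unadjusted p in limma was 0.112 in this fit. At the same mean it was 0.157 both with consecutive arrays averaged as presumed pairs and with no dye term. No intervals were computed for these alternatives, so a change over 1.3-fold is not excluded. Without replicate 5 the mean was -0.09, and without replicate 12 it was -0.19.

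*Dppa5a*, also known as *Esg1*, codes for a small KH-domain protein that binds RNA in embryonic stem cells. It lies at chr9:78367052-78368199, and the pseudogenes *Dppa5b* and *Dppa5c* are annotated on the same chromosome. Whether probe 11 also bound RNA from these copies was not tested. The arrays with the mutant in Cy5 gave log2 ratios of -0.18, -0.52, -0.35, 0.57 and -0.49 on replicates 1, 3, 5, 7 and 11. Those with the mutant in Cy3 gave 0.05, 0.30, 0.45, 0.80 and 0.43 on replicates 2, 4, 6, 10 and 12. Replicates 8 and 9 had 0.50 and 0.20. Every array with the mutant in Cy3 was above 0 and 4 of 5 with the mutant in Cy5 were below 0, with replicate 7 the only one of these to reach into the range of the other orientation.

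The fitted mean of *Dppa5a* was 0.15 (SE 0.10, SD 0.44 over 12 arrays), with a 95% interval from -0.07 to 0.36 (a ratio of 0.952 to 1.29). The adjusted p was 0.638 in limma and the exact two-sided sign-flip permutation test over 12 arrays gave p = 0.271. With arrays taken as independent, as for *Dppa4*, the interval lies inside a change of 1.3-fold in either direction. Its upper ratio of 1.29 is close to that limit. The unadjusted p in limma was 0.17 in this fit. At the same mean it was 0.225 with consecutive arrays averaged as presumed pairs, and 0.26 with no dye term. Intervals were not computed for these alternatives, and a change over 1.3-fold is not excluded. Without replicate 7 the mean was 0.07.

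**Figure D1:**
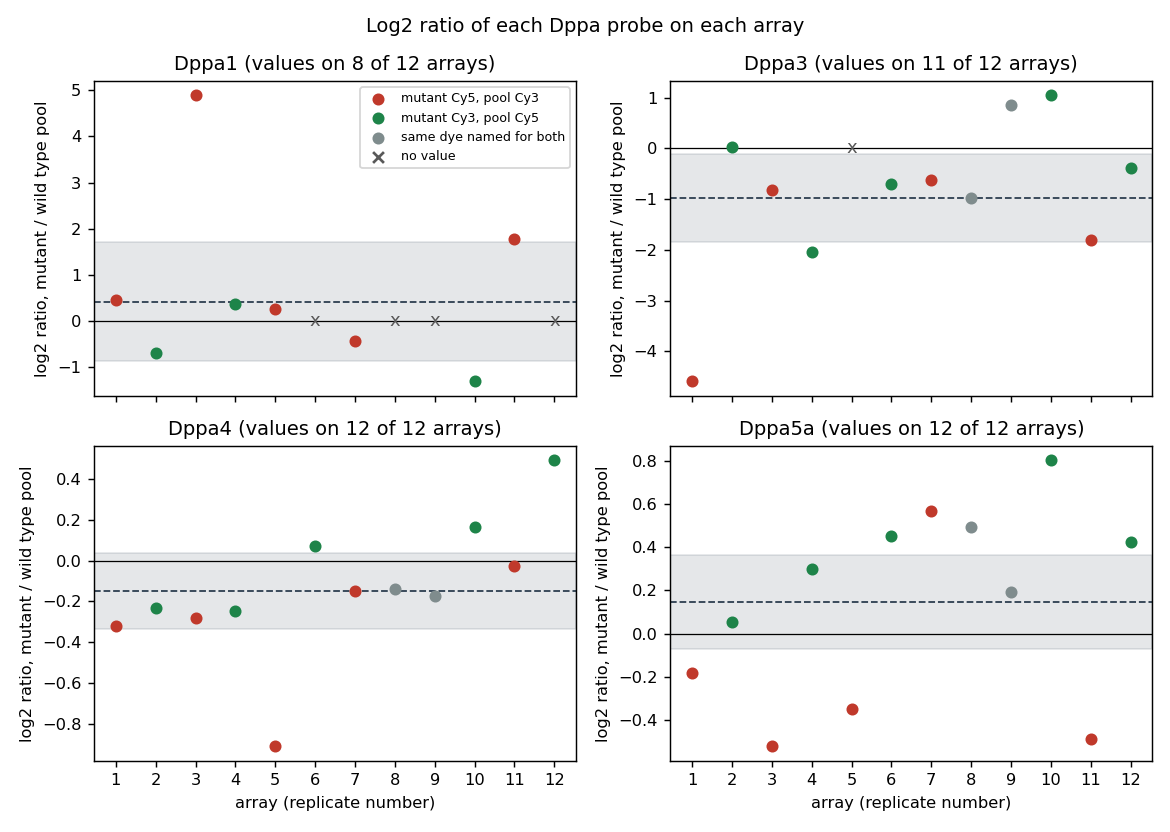
Log2 ratio of *Prdm6* del/del over the wild type pool (vertical axis, a separate scale in each panel) on each of the 12 arrays (horizontal axis, replicate number) for the 4 *Dppa* probes. Points are coloured by the dye of the mutant channel, crosses at 0 mark arrays with no value, the dashed line is the mean fitted by limma and the grey band its 95% interval. *Dppa1* and *Dppa3* each have 1 array far from the rest (4.89 and -4.59), and the bands of *Dppa1*, *Dppa4* and *Dppa5a* include 0.

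The *Dppa* values differed between the dye orientations by amounts that did not pass the test. The mean log2 ratios over arrays with the mutant in Cy5 and in Cy3 were -0.20 and 0.41 for *Dppa5a*, and -0.34 and 0.05 for *Dppa4*. They were -1.96 and -0.41 for *Dppa3*, and 1.39 and -0.55 for *Dppa1*. Only *Dppa3* had the same sign in both. The dye coefficient of the limma fit, negative where the mutant read higher in Cy3, was -0.30 for *Dppa5a* (SE 0.11, unadjusted p = 0.0174, adjusted p = 0.0862), -0.19 for *Dppa4* (SE 0.09, adjusted p = 0.177), -0.75 for *Dppa3* (SE 0.44, adjusted p = 0.257) and 0.97 for *Dppa1* (SE 0.56, adjusted p = 0.274). At an adjusted p under 0.05, 0 of 4 had a dye effect, against 12.2% of all probes tested, and at an unadjusted p under 0.05 there was 1 of 4, against 31.7%. For *Dppa1*, *Dppa4* and *Dppa5a* the dye coefficient was larger in size than the mean itself.

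Set against all tested probes, the values of *Dppa1* and *Dppa3* spread widely, and those of *Dppa4* and *Dppa5a* lay nearer the median spread. The SD of *Dppa1* over arrays exceeded that of 98.2% of all tested probes and the SD of *Dppa3* that of 96.9%, while those of *Dppa4* and *Dppa5a* exceeded 32.8% and 55.4%. Probes with missing values varied more throughout the table. The median SD was 1.72 for the 183 probes with a value on 8 arrays, 0.805 for the 1275 with 11 and 0.386 for the 18157 with 12. Among probes with the same number of values, the SD of *Dppa1* exceeded 57.4%, that of *Dppa3* 90.3%, that of *Dppa4* 36.8% and that of *Dppa5a* 61.5%.

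**Figure D2:**
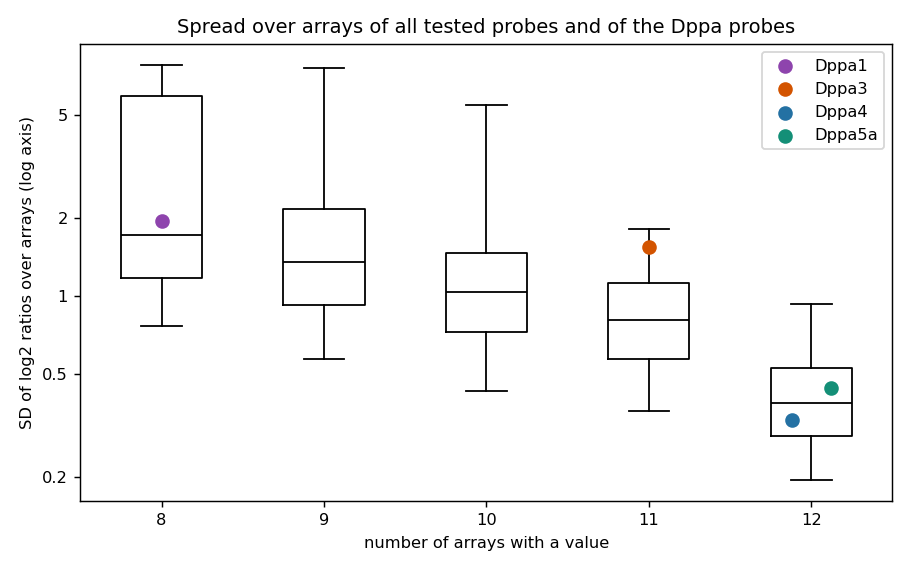
SD of the log2 ratios over arrays (vertical axis, log scale) by the number of arrays with a value (horizontal axis) for all 20516 tested probes. Boxes show quartiles and median, whiskers the 5th and 95th percentiles, and coloured points the 4 *Dppa* probes, with *Dppa4* and *Dppa5a* set slightly apart at 12 arrays. Against probes with the same number of values, *Dppa1* (SD 1.94, above 57.4% of them), *Dppa4* (0.33) and *Dppa5a* (0.44) lie within the box. *Dppa3* (SD 1.55, above 90.3% of them) lies over its box.

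If consecutive replicate numbers are the dye-swap arrays of 1 yolk sac, which the labels do not say, the arrays of a pair often disagreed. *Dppa3* had complete pairs for 5 yolk sacs, and both arrays had the same sign in 4 of them. The pair means ran from -2.29 to 0.95, and the arrays of the first pair, replicates 1 and 2, differed by 4.61. For *Dppa4* the signs matched in 3 of 6 pairs and the pair means lay between -0.42 and 0.23. For *Dppa5a* they matched in 2 of 6, with pair means from -0.11 to 0.53, and *Dppa1* had only 2 complete pairs.

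Over arrays, *Dppa4* and *Dppa5a* varied together to some degree, with a Pearson's r of 0.55 and a Spearman's rho of 0.62 over 12 arrays that share the wild type pool. The dye orientation differed between arrays and was not taken out of these values. Both probes had higher means with the mutant in Cy3, and how far dye enters r was not tested. For *Dppa3*, r was 0.40 with *Dppa4* (rho 0.48) and 0.47 with *Dppa5a* (rho 0.43) over 11 arrays. *Dppa1* ran the other way, with r of -0.21, -0.13 and -0.73 against *Dppa3*, *Dppa4* and *Dppa5a* over 7, 8 and 8 arrays, while rho, on which its value of 4.89 weighs less, was -0.68, -0.40 and -0.83. These are descriptions only.

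Among 11454 other probes with a gene symbol and a value on every array, the pattern most like that of *Dppa4* was that of *Dpysl2*, a cytosolic phosphoprotein of growing axons, with r of 0.963 and rho of 0.92 over 12 arrays. *Acaa2*, a mitochondrial thiolase, followed with r of 0.960, and *Zfp830*, a zinc finger gene, with 0.957. For *Dppa5a* the most alike were *Slc29a3*, a nucleoside transporter, with r of 0.908 and rho of 0.81, *Tekt1*, a tektin of cilia and flagella, with 0.903, and *Tmem117*, a transmembrane protein, with 0.899. Being the highest of so many, these values are high by selection. Each of the 6 probes also had a higher mean log2 ratio with the mutant in Cy3 than in Cy5, as *Dppa4* and *Dppa5a* had (for example -0.36 in Cy5 and 0.61 in Cy3 for *Slc29a3*), and none passed the threshold.

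No other gene of pluripotency passed the threshold. Of 43 genes of a pluripotency list, 26 were measured by 35 probes, and 0 passed in limma in either direction. At an unadjusted p under 0.05 there were 4 of 35 probes, against 2267 of the 20516 tested, a share close to that background. The list had a median log2 ratio of 0.05, against -0.00 over all probes tested, and single probes ran from -0.47 to 0.43. *Nr0b1*, a nuclear receptor of embryonic stem cells, had the smallest p, with a log2 ratio of 0.43 (SD 0.52 over 11 arrays, adjusted p = 0.254 in limma). *Pou5f1*, the Oct4 gene whose expression the *Dppa* genes were found to follow, had 0.20 (SD 0.22 over 12 arrays, higher on 10, adjusted p = 0.288 in limma). The remaining probes with an unadjusted p under 0.05 were lower. *Tcl1* had -0.47 (SD 0.60 over 11 arrays, lower on 9, adjusted p = 0.329 in limma). *Stat3* had -0.14 (SD 0.19 over 12 arrays, lower on 8, adjusted p = 0.400 in limma), while another *Stat3* probe had 0.004. The probes with the smallest p thus went in both directions.

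Of 24 genes of primordial germ cells and their niche, 11 were measured by 12 probes, and 2 genes fell, with 1 probe each. Among all probes tested, 186 of 20516 passed as lower, and 1.07% passed in either direction. The list was chosen with earlier results of these data known, so this count is no test of the list. *Ifitm3*, an interferon-induced membrane protein that also marks early germ cells, had log2 ratios with a lowest value of -1.63, a median of -0.69 and a highest value of -0.29, below 0 on 12 of 12 arrays (adjusted p = 0.000307 in limma). The study selected *Ifitm3* on these same arrays, so its fall is not independent evidence. *Kitl*, the ligand of the Kit receptor, which somatic cells make for germ cells and blood progenitors, ranged from -1.72 to 0.16 with a median of -0.66, below 0 on 11 of 12 arrays (mean -0.80, SD 0.67, adjusted p = 0.0106 in limma). It stayed past the threshold without each of the 12 arrays in turn (largest adjusted p = 0.0329). With consecutive arrays averaged as presumed pairs it also passed (adjusted p = 0.0356 in limma). It did not where pairs with 1 value were kept (adjusted p = 0.0598 in limma) or with no dye term (adjusted p = 0.0605 in limma). *Kitl* had a value on 12 arrays, so its own pair means were the same in both averagings. Only the values and number of the other probes tested with it differed. With the mutant in Cy5 only and in Cy3 only, neither gene passed (adjusted p in limma of 0.111 and 0.0835 for *Ifitm3*, and 0.371 and 0.0727 for *Kitl*). Fewer arrays enter there, and only 1 and 2 of all probes passed, so these settings say little about either gene. With signs turned on the Cy3 arrays *Ifitm3* had -0.29 (adjusted p = 0.0173 in limma), a change under 1.3-fold, and *Kitl* turned to 0.53 and passed (adjusted p = 0.00659 in limma), as did 1773 of all probes. Neither gene is restricted to germ cells. The list median was -0.03, against -0.00 over all probes tested. At an unadjusted p under 0.05 there were 3 of 12 probes, against 2267 of 20516 over all probes. The third was *Ifitm1*, a relative of *Ifitm3* named after its values were seen, with a log2 ratio of -0.53, below 0 on 10 of 12 arrays (adjusted p = 0.142 in limma). The other probes of the list lay between -0.13 and 0.16.

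The DNA methylation machinery, on which *Dppa3* is known to act in oocytes and zygotes, was represented by 11 of 19 listed genes with 17 probes, of which 0 passed in limma and 2 had an unadjusted p under 0.05, near the background of 2267 in 20516 probes. The median log2 ratio was 0.02. Both of the latter belong to *Dnmt3a*, a de novo methyltransferase, with 0.35 and 0.29 (adjusted p = 0.132 and 0.179 in limma), while its other probes ran from -0.62 to 0.67 without passing. *Dnmt1*, the maintenance methyltransferase, had -0.21 (adjusted p = 0.463 in limma). Of 18 markers of visceral endoderm, the epithelium that forms the outer layer of the yolk sac, 12 were measured by 18 probes, 0 passed in limma and 2 had an unadjusted p under 0.05, again near that background, and the median was 0.04. Both were probes of *Hnf4a*, a nuclear receptor of this epithelium, with 0.28 and 0.17 (adjusted p = 0.165 and 0.407 in limma). The gene with the next smallest p was *Apoa2*, an apolipoprotein, with 0.13 (adjusted p = 0.616 in limma).

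**Figure D3:**
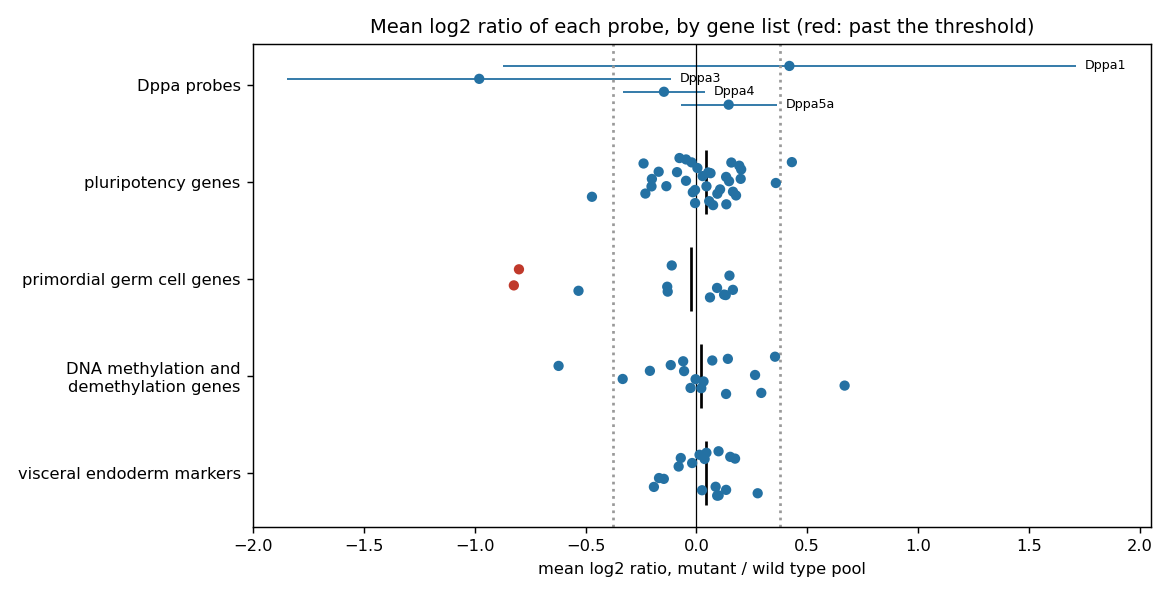
Mean log2 ratio of *Prdm6* del/del over the wild type pool (horizontal axis) of each *Dppa* probe, with its 95% interval, and of each tested probe of 4 gene lists (rows). Black bars are list medians, dotted lines mark a change of 1.3-fold, and vertical position within a row has no meaning. Only *Ifitm3* and *Kitl*, in red, passed the threshold.

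The nearest tested genes on either side of the *Dppa* loci gave no call either. They were not all close: they lay 294.2 to 2356.1 kb from *Dppa1* and 548.3 to 2874.7 kb from *Dppa4*. For *Dppa3* the distances were 16.3 to 419.7 kb, and for *Dppa5a* 19.9 to 247.3 kb. The 3 nearest genes with a tested probe on each side of the 4 loci made 24 genes with 32 probes, with log2 ratios from -0.35 to 0.64, and 0 passed in limma. Of the 32 probes, 3 had an unadjusted p under 0.05, against 2267 of 20516 over all probes. Closest to *Dppa3* was *Gdf3*, a TGF-beta family ligand of pluripotent cells 16.3 kb away, with a log2 ratio of 0.05 (adjusted p = 0.834 in limma). *Slc2a3*, a glucose transporter on its other side, had 0.17 (adjusted p = 0.743 in limma). Beside *Dppa5a* at 19.9 kb, the glutathione transferase gene *Gsta2* had -0.35 with an adjusted p of 0.0372 in limma, a change under 1.3-fold, so it did not pass.

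**Figure D4:**
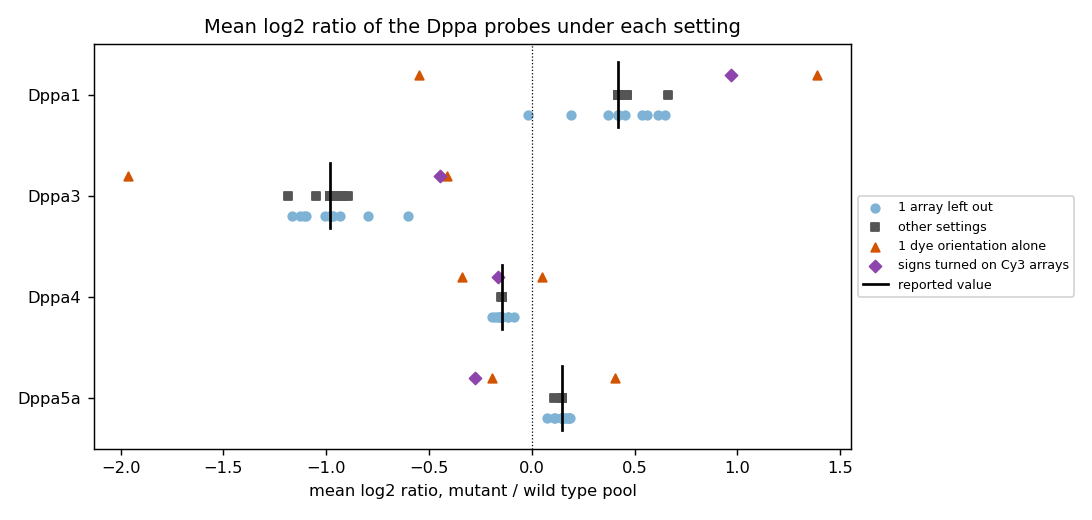
Mean log2 ratio (horizontal axis) of the 4 *Dppa* probes (rows) as reported (black line) and under each alternative setting (points). Orange triangles are the 2 dye orientations fitted alone, which lie on opposite sides of 0 for *Dppa1*, *Dppa4* and *Dppa5a* (for *Dppa5a* at -0.20 and 0.41) and on the same side for *Dppa3* (-1.96 and -0.41).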

How the data were processed

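Yolk sac RNA was labelled indirectly with Cy3 or Cy5 and hybridized with the wild type pool. The authors deposited 1 value per probe and array, taken as a log2 ratio normalized before deposit. Background correction, normalization and spot filters are not given in the sources used here, and base and direction are not stated. Gene symbols came from the platform annotation (12771 probes with 1 symbol, 8023 with none), checked by gene ID against RefSeq annotation of GRCm38.p6. No further normalization was applied.

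Probes with at least 8 values were fitted in R 4.3.3 with limma 3.58.1 (lmFit, then eBayes), with a dye term (0 for replicates 8 and 9). Intervals are limma's. Over all probes the median Pearson correlation was 0.12 between arrays of the same orientation (lowest 0.08) and -0.12 between opposite ones. The fit was tested on simulated data.

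Named genes are all *Dppa* probes, list genes past the threshold (otherwise the 2 with the smallest p), the 3 most correlated probes and the nearest neighbours. *Tcl1* and *Stat3* were added after their values were seen. Members and lists were chosen with earlier results of these data known. Alternatives changed dye handling, arrays, sign, centring, extreme values, minimum of arrays, presumed pairs and limma options.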

Additional observations from a re-analysis of the deposited data

How the results depend on the processing

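No *Dppa* probe passed under any of the 28 settings tried (0 calls in limma, adjusted p from 0.061 to 0.85). Nor did *Dppa1* pass in the added settings with a minimum of 7 arrays (largest adjusted p = 0.99 in limma). The sign of *Dppa3* was the same in all of its settings, with means from -1.96 to -0.41. The unadjusted p of *Dppa3* was no longer under 0.05 with no dye term, with the mutant in Cy3 only, with signs turned, with either averaging of pairs, and without replicates 1, 4, 6 and 11 in turn. Conversely, *Dppa4* reached an unadjusted p under 0.05 without replicate 12 (p = 0.0387 in limma). *Dppa5a* did so with the mutant in Cy3 only (p = 0.0156 in limma) and with signs turned (p = 0.0162 in limma). With the mutant in Cy3 only, *Dppa1* had -0.55 and *Dppa4* 0.049, and with the mutant in Cy5 only *Dppa5a* had -0.20, so these signs turned. *Dppa5a* had -0.28 (adjusted p = 0.061) with signs turned on the arrays with the mutant in Cy3, and *Dppa1* had -0.019 without replicate 3, a setting chosen after seeing the data. The cause was not tested. Over all probes, 220 passed (34 higher, 186 lower), 113 with consecutive arrays averaged as presumed pairs where both arrays had a value (10 higher, 103 lower), 1 and 2 with the mutant in Cy5 only and in Cy3 only, where fewer arrays enter, and 1773 with signs turned (1143 higher, 630 lower). The planned averaging, run first with lone arrays kept, gave 38 (3 higher, 35 lower), and the requirement of both arrays was chosen after that count was seen. Leaving out each array in turn gave 165 to 214. No paired analysis was possible because all arrays form 1 group against a common pool. *Dppa1* had no value in settings that need 12 arrays or 4 complete pairs, nor, at the minimum of 8, where any of its 8 arrays was left out, so its values there come from a minimum of 7. *Dppa3* had none where 12 are needed. Missing values limit *Dppa1* and *Dppa3*, and signal over background is unknown for all 4 probes.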
